A study of Homo sapiens with 36 samples.

Results

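The miR-17-92 cluster is a set of miRNA hairpins cut from 1 long non-coding transcript, MIR17HG, on human chromosome 13. The 10 members described here are the mature products of the cluster that were chosen by name, 10 of the 1508 miRNAs listed. For 4 hairpins both arms are members, and for the hairpins of miR-19a and miR-19b the 3p arm alone is. The 7 members other than miR-17-3p, miR-19a-3p and miR-20a-3p passed the filter on low counts and were tested among 360 miRNAs. Those 3 are given as counts.

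Small RNA was sequenced from WI-38, human diploid lung fibroblasts of normal origin with a limited lifespan, with 2 replicates in each of 18 conditions. Ctrl was young proliferating untreated cells, whose population doubling level the labels do not give. PMD-Sen cells, which enter senescence after plasma membrane damage, received 0.0095% SDS for 24 h, and DDR-Sen cells, which enter it through the DNA damage response, received 250 nM DXR (doxorubicin) for 24 h. Libraries of both series were made on 8 days from washout (D0) to D16 (D1, D2, D3, D4, D6 and D8 between them), and replicative senescence (RS) was reached by serial passage to a population doubling level of 54 to 56. All groups share 1 cell strain, and the labels call the 2 replicates of a condition biological without saying how they were kept apart, so the p-values measure the spread between these libraries.

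A miRNA hairpin is cut to a short duplex, and usually 1 arm (the guide) is loaded into an Argonaute protein while the other arm is discarded. The guide finds its targets mainly through its seed, bases 2 to 8, so members with the same seed share many predicted targets. The cluster is known as an oncogenic miRNA locus that MYC and E2F factors activate in dividing cells. Among its known targets are the cell-cycle inhibitor CDKN1A and the pro-apoptotic BCL2L11.

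The mature sequences show how the members are related. They are RefSeq entries on GRCh38.p14, written 5′ to 3′ with the seed in capitals, in genomic order, and all 10 members were matched by name.

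hsa-miR-17-5p: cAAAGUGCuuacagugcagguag
hsa-miR-17-3p: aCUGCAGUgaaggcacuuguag
hsa-miR-18a-5p: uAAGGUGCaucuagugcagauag
hsa-miR-18a-3p: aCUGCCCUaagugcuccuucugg
hsa-miR-19a-3p: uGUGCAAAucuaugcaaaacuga
hsa-miR-20a-5p: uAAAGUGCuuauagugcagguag
hsa-miR-20a-3p: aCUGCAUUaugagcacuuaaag
hsa-miR-19b-3p: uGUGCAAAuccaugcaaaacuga
hsa-miR-92a-1-5p: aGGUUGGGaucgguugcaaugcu
hsa-miR-92a-3p: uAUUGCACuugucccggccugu

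The guide arms fall into 4 seeds. miR-17-5p and miR-20a-5p share AAAGUGC, miR-19a-3p and miR-19b-3p share GUGCAAA, and miR-18a-5p (AAGGUGC) and miR-92a-3p (AUUGCAC) each have their own. miR-17-5p and miR-20a-5p differ by 2 substitutions, C1U and C12U, and miR-19a-3p and miR-19b-3p differ by 1, U11C, with positions counted from the 5′ end of the first-named miRNA. The hairpins lie on the plus strand at chr13:91350605-91351391 (GRCh38), a stretch of 787 bases. In the GENCODE annotation of MIR17HG, 8 of 16 transcripts hold the whole stretch in 1 intron and 3 hold it in 1 exon.

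The 2 hairpins below are those with both arms past the filter on low counts. For MIR18A the rarer arm was still at 3 counts or fewer in 5 of 16 PMD-Sen and 11 of 16 DDR-Sen libraries. For MIR92A1 it was so in 1 and 4. The mature arms are in capitals and the loop and stem ends in lower case.

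MIR18A, chr13:91350751-91350821, plus strand: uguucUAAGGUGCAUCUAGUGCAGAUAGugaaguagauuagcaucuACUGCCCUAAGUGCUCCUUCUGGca
MIR92A1, chr13:91351314-91351391, plus strand: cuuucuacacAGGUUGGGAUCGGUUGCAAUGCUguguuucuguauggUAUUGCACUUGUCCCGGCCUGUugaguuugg

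Not every member is specific to this locus. The sequences of miR-19b-3p and miR-92a-3p also come from a second hairpin each, MIR19B2 and MIR92A2, in the related miR-106a-363 cluster on the X chromosome. Reads from either copy enter the same count. The other products of that cluster were close to absent here. miR-106a-5p had 44 counts over the 36 libraries, miR-363-3p 4, miR-20b-5p 1 and miR-18b-5p 0.5, and no other arm of that cluster had a row. miR-17-5p differs from miR-106a-5p by 1 base (C1A). Its count was not whole in 16 of the 36 libraries, so some of its reads were shared out with another miRNA that the counts do not name. miR-92a-1-5p, the other arm of MIR92A1, comes from the chromosome 13 copy alone.

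The members differed widely in count. miR-92a-3p took 96.7% of all counts of the 10 members, with 229132.5 counts over the 36 libraries, and ranked 18 of all miRNAs. miR-17-5p had 3535 counts (1.49%) and miR-20a-5p 2481 (1.05%). The next were miR-19b-3p with 566, miR-18a-5p with 378.5, miR-92a-1-5p with 326 and miR-18a-3p with 292. Ligation and PCR favour some small RNAs over others, so these counts do not rank the molecules in the cell.

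**Figure D1:**
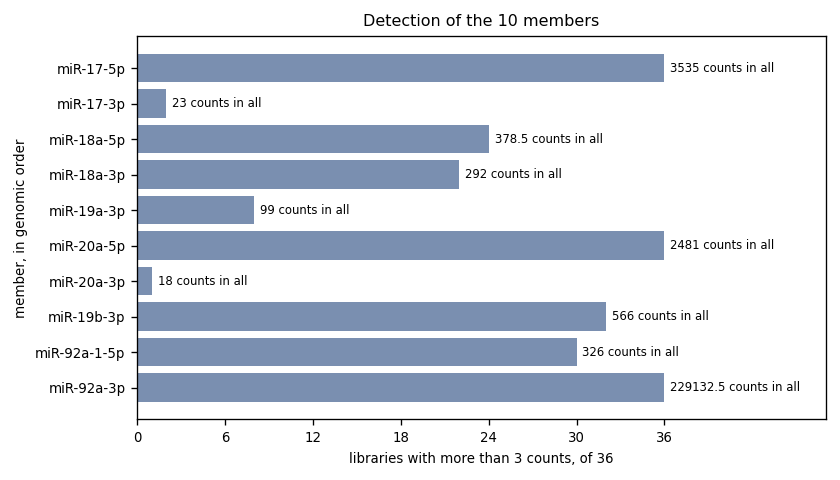
Bars give the number of the 36 libraries in which a member had more than 3 counts, with the summed count written beside each bar. miR-17-5p, miR-20a-5p and miR-92a-3p were above 3 counts in all 36 libraries, and miR-17-3p, miR-20a-3p and miR-19a-3p in 2, 1 and 8.

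miR-19a-3p, which shares its seed with miR-19b-3p, had 99 counts in all, of which 29.5 came from 1 library, PMD-Sen D16 replicate 1, the deepest of the series. It stood at 1.5 and 0 counts in the Ctrl libraries and at 0 in both RS libraries. A count of 0 allows up to 3 counts, so a fall of miR-19a-3p from Ctrl was not detectable at this depth. A rise was not tested. The ratio of RS to Ctrl had a 95% exact counting interval of 0 to 2.98, from 0 against 2 rounded counts. Such intervals cover counting error only, since reads copied by PCR are not independent molecules.

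The 3p arms of miR-17 and miR-20a were close to absent. miR-17-3p made up 0.646% of the reads of both arms (23 of 3562, 95% exact Clopper-Pearson interval 0.410% to 0.967%). miR-20a-3p made up 0.720% of those of its hairpin (18 of 2499, 0.427% to 1.14%). Neither was seen in RS, where 0 of 70 and 0 of 28 reads give upper bounds of 5.13% and 12.3% by the same method. The arms that are not members were no more abundant. miR-19b-1-5p had 3 counts in all, and miR-19a-5p had no row.

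After rounding, the library totals ran from 81670 to 1933442 counts with a median of 376989.5, so 1 library of the study can be far deeper than its replicate. The larger total of PMD-Sen D16 was 4.39 times the smaller, and the PMD-Sen D0 libraries were the shallowest. In the PMD-Sen D0 libraries 3 counts equal 27.5 and 33.4 CPM, above the level of several members. CPM is the count scaled to the library total and its TMM factor. The 7 fibroblast marker miRNAs summed to 51886 to 131649 CPM in every library. Most of that sum was miR-21-5p, at 37240 to 103008 CPM. One of the 7, miR-10b-5p, was at 0 to 32.3 CPM and did not pass the filter on low counts. The epithelial, blood, muscle and neuron lists summed to at most 163, 12.6, 41.8 and 17.6 CPM. The endothelial pair (miR-126) ran from 42.8 to 55.8 CPM in Ctrl, from 119 to 199 in RS, from 18.4 to 141 in PMD-Sen and from 70.4 to 155 in DDR-Sen, and its part in the results was not tested. The liver marker miR-122-5p ran from 6.43 to 264 CPM.

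The first comparison asked how far each member had moved from young proliferating cells by D16 or in RS. The study has no untreated libraries on the later days. In the PMD-Sen and DDR-Sen comparisons with Ctrl, treatment and time in culture therefore cannot be told apart. A member was called where the unadjusted p of edgeR's quasi-likelihood test was under 0.05 and the absolute log2 fold change over 1, the thresholds of the study. Adjusted p-values are Benjamini-Hochberg values of that test over the 360 tested miRNAs. At PMD-Sen D16, 5 of 7 members were called lower, beside 10.3% of all tested miRNAs. At DDR-Sen D16 the number was 6 of 7, beside 13.1%, and in RS it was 7 of 7, beside 13.3%. No member was called higher against Ctrl in these or on any earlier day, beside 8.89% of tested miRNAs called higher in RS and 3.51% and 3.92% of the tests over the PMD-Sen and DDR-Sen days. At the adjusted p the numbers were 5, 6 and 6, beside 5.83%, 9.44% and 10.8%. Both libraries lay below both Ctrl libraries for 6, 7 and 7 members, beside 31.7%, 36.4% and 27.2% of all tested miRNAs. The median log2 fold change of the 7 members was -1.22, -2.35 and -2.70 in that order, while the median of all tested miRNAs was 0.05, -0.03 and 0.12. In bulk RNA, fewer cells with the miRNA and less of it per cell cannot be told apart.

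miR-17-5p, the first guide of the cluster and a repressor of CDKN1A, stood at 386 and 507 CPM in Ctrl. It stood at 178 and 129 CPM in PMD-Sen D16, 82.8 and 91.0 in DDR-Sen D16, and 84.6 and 54.7 in RS. Every late library lay below both Ctrl libraries. At PMD-Sen D16 that was a log2 fold change of -1.53 ± 0.32 (SE, adjusted p = 0.0023). It was -2.35 ± 0.35 (adjusted p = 1.34e-05) at DDR-Sen D16 and -2.70 ± 0.35 (adjusted p = 8.94e-07) in RS.

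miR-20a-5p, which carries the same seed, stood at 215 and 346 CPM in Ctrl. It stood at 152 and 83.5 CPM in PMD-Sen D16, 69.9 and 63.2 in DDR-Sen D16, and 28.6 and 25.7 in RS. No late library reached the lower Ctrl library. The log2 fold changes were -1.22 ± 0.34 (SE, adjusted p = 0.0133), -2.08 ± 0.37 (adjusted p = 0.000105) and -3.37 ± 0.40 (adjusted p = 1.88e-07). The PMD-Sen call was lost without Ctrl replicate 2, at -0.82, and without PMD-Sen D16 replicate 2, at -0.89.

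miR-92a-3p, the most counted member, stood at 20957 and 22768 CPM in Ctrl. It was at 9846 and 8929 CPM on PMD-Sen D16, 6783 and 5235 on DDR-Sen D16 and 7154 and 4828 in RS. All 6 late libraries lay under the lower Ctrl library by more than the gap between the Ctrl libraries. Its log2 fold changes were -1.22 ± 0.23 (SE, adjusted p = 0.000804), -1.86 ± 0.23 (adjusted p = 1.12e-06) and -1.87 ± 0.23 (adjusted p = 4.27e-07).

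miR-92a-1-5p, the opposite arm, stood at 21 and 23 counts in Ctrl (90.1 and 65.7 CPM). It had 22 and 2 counts at PMD-Sen D16 (12.0 and 4.40 CPM), 3 and 3 at DDR-Sen D16 (7.77 and 5.75 CPM) and 8 and 3 in RS (19.1 and 4.82 CPM). Each of these libraries was under both Ctrl libraries in CPM. The log2 fold change was -2.99 ± 0.71 (SE, adjusted p = 0.00557) at PMD-Sen D16 and -2.77 ± 0.75 (adjusted p = 0.00615) in RS. At DDR-Sen D16 both libraries were at the floor of 3 counts. There the ratio to Ctrl was 0.0876, with a 95% exact counting interval of 0.0305 to 0.206 (adjusted p = 0.00256).

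miR-18a-5p, a guide whose seed differs from that of miR-17-5p by A4G, was called at DDR-Sen D16 and in RS but not at PMD-Sen D16. It stood at 47.2 and 40.0 CPM in Ctrl and at 31.5 and 22.0 CPM at PMD-Sen D16, a log2 fold change of -0.64 ± 0.75 (SE, adjusted p = 0.541). At DDR-Sen D16 it had 6 and 0 counts and in RS 0 and 2. The ratio to Ctrl was 0.154 (95% exact counting interval 0.0517 to 0.385, adjusted p = 0.0467) at DDR-Sen D16 and 0.0448 (0.00514 to 0.18, adjusted p = 0.00413) in RS. The DDR-Sen call was lost without DDR-Sen D16 replicate 2, the library at 0, at a log2 fold change of -1.46 (unadjusted p = 0.157 by edgeR).

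miR-18a-3p, the other arm of that hairpin, stood at 42.9 and 62.8 CPM in Ctrl, at 15.2 and 2.20 at PMD-Sen D16 (28 and 1 counts) and at 7.15 and 12.9 in RS (3 and 8 counts). PMD-Sen D16 differed from Ctrl by -2.29 ± 0.79 (log2, SE, adjusted p = 0.0438) and RS by -2.34 ± 0.86 (adjusted p = 0.0473). At DDR-Sen D16 it had 0 and 3 counts, a ratio to Ctrl of 0.0602 (95% exact counting interval 0.0118 to 0.192, adjusted p = 0.00589). The PMD-Sen call was lost without Ctrl replicate 2 or without PMD-Sen D16 replicate 2, at -1.97 and -1.80, and the RS call without Ctrl replicate 2 or RS replicate 1, at -2.02 and -2.04.

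miR-19b-3p stood at 40.8 and 51.4 CPM in Ctrl, at 42.1 and 15.4 in PMD-Sen D16, 25.9 and 24.9 in DDR-Sen D16, and 4.76 and 20.9 in RS. PMD-Sen D16 differed from Ctrl by -0.59 ± 0.68 (log2, SE, adjusted p = 0.536) and DDR-Sen D16 by -0.90 ± 0.74 (adjusted p = 0.41). In RS it was -1.77 ± 0.78, called at the unadjusted p of 0.0305 but not at the adjusted p of 0.106. That call was lost without Ctrl replicate 2 or RS replicate 1, at -1.62 and -1.18.

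**Figure D2:**
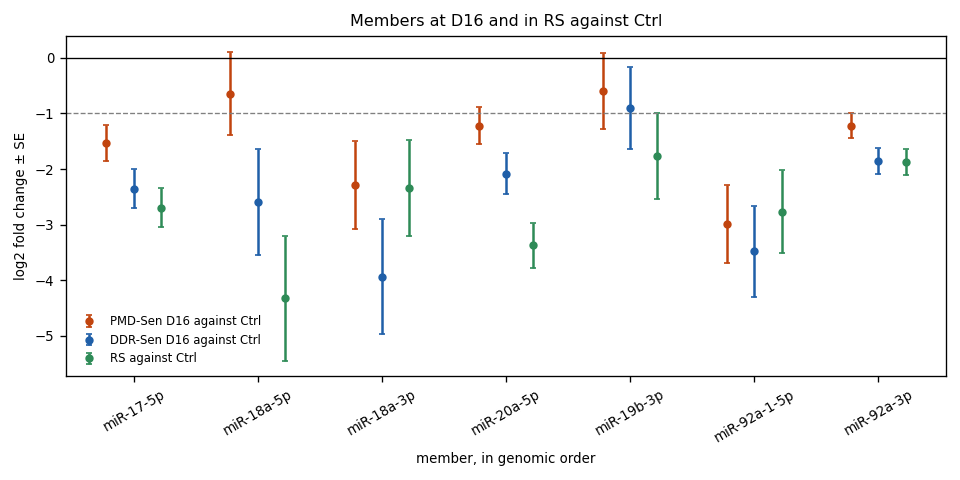
Points give each tested member's log2 fold change against Ctrl on a linear axis of log2 values, with bars of 1 SE from the edgeR fit, for PMD-Sen D16, DDR-Sen D16 and RS (2 libraries a group). The dashed line marks -1. miR-19b-3p lies nearest to 0 in each comparison, and values of miR-18a-5p, miR-18a-3p and miR-92a-1-5p that rest on 6 or fewer counts depend on the prior count of the fit.

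The second comparison asked on which day each member was first called lower than Ctrl. At D0, the end of treatment, 0 of 7 members were called in either series, beside 3.06% of all tested miRNAs in PMD-Sen and 1.67% in DDR-Sen. In the PMD-Sen series 0 were called on D1 (beside 2.78%) and D2 (3.33%), 2 on D3 (1.67%), D4 (3.61%) and D6 (6.39%), and 3 on D8 (8.33%). In the DDR-Sen series 1 was called on D1 (4.17%), 3 on D2 (5.28%), 0 on D3 (2.5%), 5 on D4 (5%) and D6 (7.22%), and 6 on D8 (8.33%). Summed over the 8 days, 14 of 56 member tests were called lower in PMD-Sen, beside 4.93% of all tests, and 26 of 56 in DDR-Sen, beside 5.9%. At the adjusted p the sums were 10 and 16, beside 1.84% and 2.71%. The 2 sums share the Ctrl libraries, and the difference between them was not tested. Without Ctrl replicate 2, the PMD-Sen sum was 9 and the D16 count 3. The D16 count was also 3 without PMD-Sen D16 replicate 2.

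**Figure D3:**
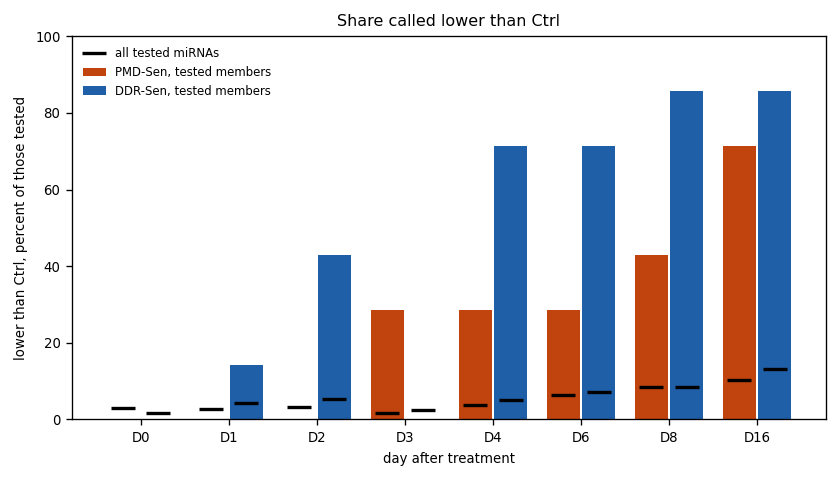
Bars give the percent of the 7 tested members called lower than Ctrl (unadjusted p under 0.05 and absolute log2 fold change over 1) at each day in PMD-Sen and DDR-Sen, and black ticks the percent of all 360 tested miRNAs. No member is called at D0, where the PMD-Sen libraries are the shallowest of the study. At D16 it is 5 of 7 in PMD-Sen and 6 of 7 in DDR-Sen.

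The days of the calls differed between the members, and several of the earlier calls were lost on leaving out 1 library. miR-92a-1-5p was called from D3 on in PMD-Sen (-1.66 ± 0.69, SE, adjusted p = 0.356). In DDR-Sen it was called at D1 (-1.45 ± 0.66, adjusted p = 0.301), at D2 and from D4 on. Its calls at D3 and D4 in PMD-Sen were lost without Ctrl replicate 1 (-1.43 and -1.67) and without replicate 1 of the day itself (-1.12 and -0.90). Without Ctrl replicate 1 the DDR-Sen calls at D1 and D2 were lost too (-1.22 and -1.37). The D1 call was also lost without D1 replicate 1 (-0.97), the D2 call without either D2 library (-1.75 and -1.46), and the D4 call without D4 replicate 1 (-1.55). Its first calls at the adjusted p came at D6 in both series. The guide of the same hairpin, miR-92a-3p, was first called at D16 in PMD-Sen and at D8 in DDR-Sen (-1.09 ± 0.23, adjusted p = 0.00149). The latter call was lost on the fold threshold without DDR-Sen D8 replicate 1 (-0.96). Short of that threshold, miR-92a-3p was already lower at D6 in PMD-Sen (-0.77 ± 0.23, adjusted p = 0.0361) and DDR-Sen (-0.86 ± 0.23, adjusted p = 0.0149). At PMD-Sen D8 it was -0.87 ± 0.23 (adjusted p = 0.0159).

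miR-17-5p was called at D4, D8 and D16 in PMD-Sen and at D2, D4, D6, D8 and D16 in DDR-Sen. The fold threshold alone withheld a call of miR-17-5p at PMD-Sen D6 (-0.95 ± 0.32, unadjusted p = 0.00578 by edgeR). The same held at DDR-Sen D3 (-0.82 ± 0.33, unadjusted p = 0.0179 by edgeR). The PMD-Sen D4 call was lost without D4 replicate 2 (-0.92). The DDR-Sen D2 call was lost without Ctrl replicate 2 (-0.79) or D2 replicate 2 (-0.72), and the D4 call without Ctrl replicate 2 (-0.95). miR-20a-5p was called at D6, D8 and D16 in PMD-Sen and from D4 on in DDR-Sen. Without Ctrl replicate 2 its calls at PMD-Sen D6 and D8 (-0.63 and -0.75) and at DDR-Sen D4 and D6 (-0.72 and -0.74) were lost, beside that at PMD-Sen D16 given above. The PMD-Sen D6 call was also lost without D6 replicate 2 (-0.90), and the DDR-Sen D4 call without D4 replicate 1 (-0.87).

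miR-18a-3p was called at D3 and D16 in PMD-Sen and at D2, D4, D6, D8 and D16 in DDR-Sen. Without Ctrl replicate 2 its calls at PMD-Sen D3 (-1.75) and at DDR-Sen D2 and D4 (-2.10 and -1.59) were lost. They were also lost without PMD-Sen D3 replicate 2 (-1.68), DDR-Sen D2 replicate 2 (-2.06) and DDR-Sen D4 replicate 1 (-1.02). miR-18a-5p was called at no day in PMD-Sen and at D4, D8 and D16 in DDR-Sen, and the D4 and D8 calls were lost without replicate 1 of the day itself (-2.27 and -2.30). miR-19b-3p was called on 1 day of either series, DDR-Sen D6 (-1.80 ± 0.82, SE, adjusted p = 0.168), a call lost on leaving out either Ctrl library or either D6 library.

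The level of miR-92a-3p shows the course most finely, because its counts are never below 1571. In PMD-Sen its 2 libraries read 24987 and 17484 CPM on D0, 21954 and 32238 on D1, 19900.2 and 27418 on D2 and 16917 and 23059 on D3. On D4 they read 15744 and 23927 CPM, on D6 12096 and 13617, and on D8 12094 and 11764. The highest mean of any condition was 27096 CPM in PMD-Sen D1, where 1 library lay within the Ctrl range and the other above it. In DDR-Sen they read 20552.5 and 19957 CPM on D0, 16982 and 21285 on D1, 17674 and 20360.4 on D2 and 15208 and 18099 on D3. The D4 pair read 16072 and 16394 CPM, the D6 pair 12414 and 11743, and the D8 pair 9908 and 10700.2. From D6 on, no library of either series reached the Ctrl range.

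miR-17-5p was at 340 and 356 CPM at PMD-Sen D0, 237 and 103 at D4, and 169 and 179 at D8. In DDR-Sen it was at 286 and 539 CPM at D0, 186 and 213 at D4, and 126 and 127 at D8. Its lowest mean was in RS, at 69.6 CPM, and its highest in Ctrl, at 447 CPM. The lowest means of miR-20a-5p, miR-18a-5p, miR-19b-3p and miR-92a-3p were also in RS, and those of miR-92a-1-5p and miR-18a-3p were at DDR-Sen D16. Neighbours in these orders were often closer than their replicates. For miR-17-5p the RS and DDR-Sen D16 libraries overlapped.

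**Figure D4:**
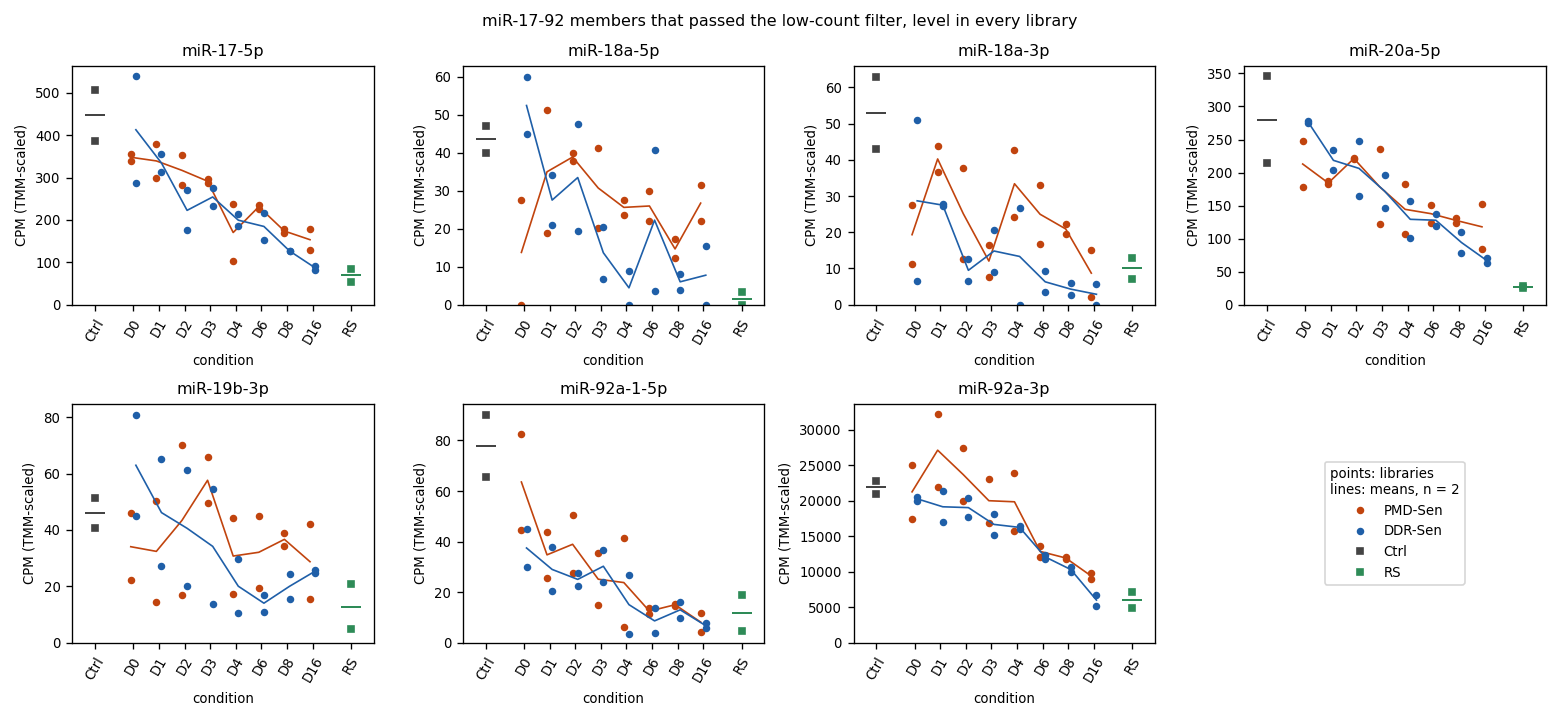
Each panel plots the CPM of 1 tested member in every library on a linear axis from 0, for Ctrl, PMD-Sen and DDR-Sen from D0 to D16 and RS, with lines through the means of 2 libraries. The means of miR-17-5p, miR-20a-5p, miR-92a-1-5p and miR-92a-3p are lower at D16 than at D0 in both series. They do not all fall at every step. The replicates of miR-18a-5p, miR-18a-3p, miR-19b-3p and miR-92a-1-5p lie far apart at several days.

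The third comparison used no Ctrl library and asked whether the members changed with day within each series. Without an untreated series, treatment and time in culture cannot be told apart here either. A slope was fitted on log2(day + 1) over the 16 libraries of a series, so 1 unit is a doubling of day + 1. In PMD-Sen, 4 of 7 members had a negative slope at adjusted p under 0.05, beside 17% of the 336 miRNAs tested. In DDR-Sen all 6 tested members had one, beside 17.9% of 319. miR-18a-3p did not pass the filter on the DDR-Sen libraries alone. With the 360 miRNAs of the first comparison it was tested and 7 of 7 members passed.

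miR-92a-3p had slopes of -0.36 ± 0.07 (SE, adjusted p = 0.000241) in PMD-Sen and -0.43 ± 0.05 (adjusted p = 8.79e-07) in DDR-Sen. miR-17-5p had slopes of -0.32 ± 0.07 (adjusted p = 0.00183) and -0.54 ± 0.06 (adjusted p = 2.26e-07). miR-92a-1-5p fell most steeply in PMD-Sen, with a slope of -0.66 ± 0.16 (adjusted p = 0.00183), and had a slope of -0.60 ± 0.14 (adjusted p = 0.00195) in DDR-Sen.

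miR-20a-5p had slopes of -0.22 ± 0.08 (SE, adjusted p = 0.0317) in PMD-Sen and -0.51 ± 0.06 (adjusted p = 3.51e-07) in DDR-Sen. The PMD-Sen slope missed the threshold without the D16 libraries (adjusted p = 0.123) and without PMD-Sen D0 replicate 1 or D16 replicate 2 (adjusted p = 0.086 and 0.115). miR-18a-5p had -0.08 ± 0.15 (adjusted p = 0.691) in PMD-Sen and -0.77 ± 0.19 (adjusted p = 0.00234) in DDR-Sen. miR-19b-3p had -0.07 ± 0.16 (adjusted p = 0.735) and -0.45 ± 0.13 (adjusted p = 0.00811), and the second missed the threshold without the D0 libraries (adjusted p = 0.0789). miR-18a-3p had -0.28 ± 0.18 (adjusted p = 0.231) in PMD-Sen.

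The fourth comparison tested the difference between the stimuli itself. The slope differed between the series for 1 of the 6 members that passed the low-count filter in both, miR-20a-5p, beside 9.32% of 354 miRNAs with a higher slope in PMD-Sen. The difference, PMD-Sen minus DDR-Sen, was 0.28 ± 0.10 (SE, adjusted p = 0.0413), and its adjusted p was 0.0581 when the 360 miRNAs of the first comparison were tested in place of the 354. miR-18a-5p had a larger difference with a larger error, 0.68 ± 0.25 (adjusted p = 0.0553). For the other members, miR-18a-3p included, the difference ran from -0.07 to 0.48, none past the threshold. The number of members called in this comparison ran from 0 to 2 over the alternatives, and it changed on leaving out any of 22 of the 32 libraries.

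The mean level over D1 to D16, with day as a factor, was higher in PMD-Sen for 2 of the 6 members that passed the low-count filter in both series, beside 8.96% of 346 miRNAs. These were miR-92a-3p by 0.34 ± 0.07 (log2, SE, adjusted p = 0.00102) and miR-18a-5p by 0.95 ± 0.33 (adjusted p = 0.0367). miR-18a-3p passed the filter through the PMD-Sen libraries, where it was higher, so its difference of 1.13 ± 0.34 is a description and is not counted. miR-17-5p, at 0.32 ± 0.12, lay at an adjusted p of 0.0536 and passed with the 360 miRNAs (adjusted p = 0.028). The other 3 members had differences of 0.22 to 0.46, with adjusted p of 0.257 to 0.488. The call of miR-18a-5p was lost on leaving out any of 14 libraries in turn, at adjusted p of at most 0.0674.

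At D16 alone, 1 of 7 members was called between PMD-Sen and DDR-Sen, beside 2.78% of all tested miRNAs that were higher in PMD-Sen. It was miR-18a-5p, higher in PMD-Sen by 1.96 ± 0.91 (log2, SE, unadjusted p = 0.0405, adjusted p = 0.442 by edgeR), with 58 and 10 counts against 6 and 0. The call was lost without PMD-Sen D16 replicate 1 and without DDR-Sen D16 replicate 2. The count was 3 without PMD-Sen D16 replicate 2. The differences of the 7 members at D16 ran from 0.31 to 1.96, with a median of 0.82 beside 0.04 for all tested miRNAs. At the adjusted p 0 of them were called, and products of 1 transcript are not independent of each other.

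Against RS, 3 of 7 members were higher at PMD-Sen D16, beside 6.67% of all tested miRNAs. miR-20a-5p was higher by 2.16 ± 0.39 (log2, SE, adjusted p = 0.000534) and miR-17-5p by 1.16 ± 0.34 (adjusted p = 0.0289). The call of miR-17-5p was lost without PMD-Sen D16 replicate 1 or RS replicate 2, at 0.88 and 0.96. miR-18a-5p, at 2 counts over both RS libraries, was called with an adjusted p of 0.0289. At DDR-Sen D16 1 of 7 was called higher than RS, beside 2.22%. It was miR-20a-5p, by 1.29 ± 0.42 (SE, unadjusted p = 0.0046, adjusted p = 0.0871 by edgeR). For miR-92a-3p the difference between DDR-Sen D16 and RS was 0.00 ± 0.23 (adjusted p = 0.992). RS was reached by passage alone, so passage number and senescence cannot be told apart in it.

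The fifth comparison asked whether the members of 1 transcript, and the arms of 1 hairpin, kept their ratio as the days passed. The log2 ratio of 2 members in the same library, with 0.5 added to each count, needs no scaling between libraries. Where a count is near 0, the added 0.5 still ties the ratio to depth. In PMD-Sen the D0 libraries were the shallowest and D16 replicate 1 the deepest, and the part of depth in the relations with day was not tested. Of 18 relations with log2(day + 1), 9 ratios in 2 series over 16 libraries each, 0 passed at a Benjamini-Hochberg adjusted p under 0.05 by Pearson's r or Spearman's rho (permutation tests, two-sided, 100000 permutations). At the unadjusted p, 2 passed by r and 2 by rho, all of them in PMD-Sen.

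The ratio of miR-92a-3p to miR-92a-1-5p in PMD-Sen passed by both, with r = 0.64 (permutation p = 0.00746, adjusted p = 0.134) and rho = 0.63 (permutation p = 0.0114, adjusted p = 0.205). Its mean log2 ratio was 8.31 at D0 and 10.2 at D16. Without the 2 libraries farthest from the median of log2(day + 1), both of them PMD-Sen D0, r was 0.35. Leaving them out also narrows the range of days, so the lower r cannot tell whether the relation rests on those libraries. On leaving out 1 library r ran from 0.54 to 0.75, the highest without PMD-Sen D4 replicate 1, where the adjusted p was 0.0205 by permutation. In DDR-Sen the same ratio had r = 0.30 (permutation p = 0.26, adjusted p = 0.425), rho = 0.37 (permutation p = 0.157, adjusted p = 0.427) and r = 0.16 without the 2 farthest libraries.

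The second by r was miR-18a-5p to miR-17-5p, with r = 0.54 (permutation p = 0.029, adjusted p = 0.261) and rho = 0.42 (permutation p = 0.107, adjusted p = 0.427). Pearson's r was 0.26 without the PMD-Sen D0 libraries, in which miR-18a-5p had 3 and 0 counts. The second by rho was miR-19b-3p to miR-17-5p, with rho = 0.53 (permutation p = 0.0366, adjusted p = 0.329) and r = 0.43 (permutation p = 0.0913, adjusted p = 0.411), and r was 0.39 without the D0 libraries. The ratio of miR-20a-5p to miR-17-5p, the pair with 1 seed, had r of 0.33 in PMD-Sen and 0.06 in DDR-Sen (permutation p = 0.218 and 0.823, adjusted p = 0.425 and 0.871). Its rho was 0.37 and -0.03 (permutation p = 0.165 and 0.921, adjusted p = 0.427 and 0.921). The ratios of miR-17-5p and of miR-20a-5p to their 3p arms cannot be read, since the 3p arm was at 3 counts or fewer in 15 or 16 of the 16 libraries of each series. The same holds for miR-19a-3p, in 12 of 16.

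The arms of MIR92A1, printed above, stood in the most unequal ratio, although the 3p count also holds reads of the X chromosome copy. miR-92a-1-5p made up 0.341% of the reads of both arms in Ctrl (44 of 12900, 95% exact Clopper-Pearson interval 0.248% to 0.458%), with 0.428% and 0.288% in the 2 libraries. Its share was 0.124% over the PMD-Sen libraries (139 of 111794, 0.105% to 0.147%) and 0.134% over the DDR-Sen libraries (132 of 98744, 0.112% to 0.1585%). In RS it was 0.183% (11 of 6018, 0.0913% to 0.327%). The Ctrl interval lay above those of both series, which pool the reads of 8 days, and overlapped that of RS. Single libraries overlapped, since the highest PMD-Sen library, at 0.329%, lay above the lower Ctrl library, while the highest DDR-Sen library was at 0.225%. With 2 Ctrl libraries these shares are a description, with no test over libraries.

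The arms of MIR18A were closer in count than those of the other hairpins. miR-18a-3p made up 56.1% of the reads of both arms in Ctrl (32 of 57, 95% exact Clopper-Pearson interval 42.4% to 69.3%). It made up 42.4% in PMD-Sen (153 of 361, 37.2% to 47.7%) and 40.0% in DDR-Sen (96 of 240, 33.75% to 46.5%), and 84.6% in RS (11 of 13, 54.55% to 98.1%). The Ctrl interval overlapped each of the others, and the RS interval, from 13 reads, lay above those of both series. The series intervals pool the reads of 8 days and leave out the spread between libraries. The RS libraries, at 80.0% and 100%, were not set apart from single libraries, whose share reached 100% within each series. The lowest PMD-Sen library was at 9.09%, while DDR-Sen had a library at 0%. These shares too are a description, and no test over libraries was made. Ratios between single libraries ran from -2.81 to 3.70 on the log2 scale in DDR-Sen, where 1 of the 2 arms was at 3 counts or fewer in 11 of 16 libraries.

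**Figure D5:**
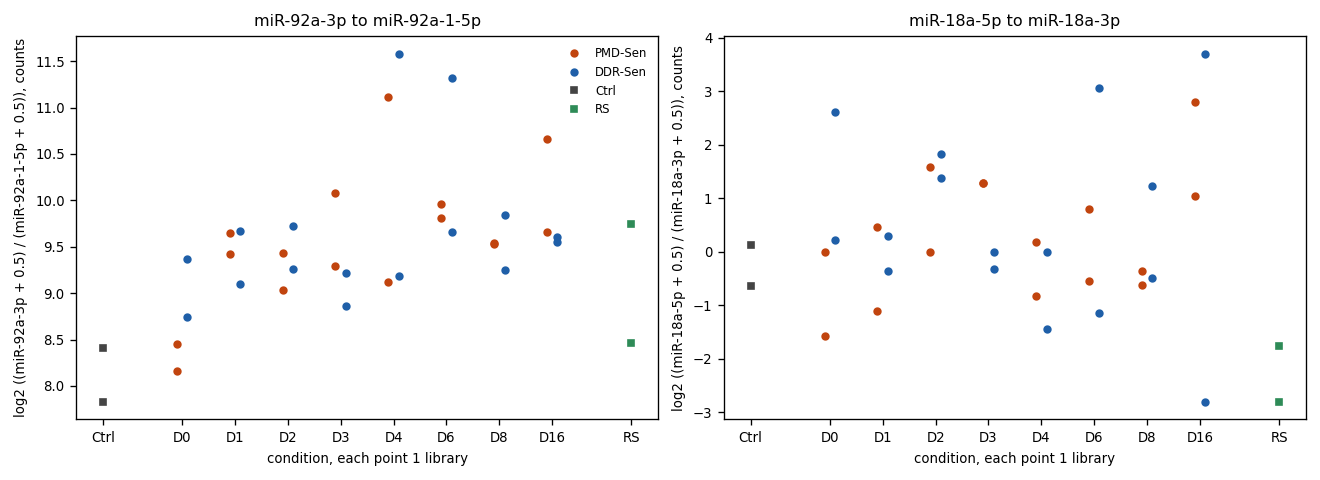
Points give the log2 ratio of the arms of MIR92A1 (left) and of MIR18A (right) in each library, from counts with 0.5 added, for Ctrl, the days of PMD-Sen and DDR-Sen, and RS. For MIR92A1 the Ctrl libraries (7.83 and 8.41) and the PMD-Sen D0 libraries (8.16 and 8.45) lie lowest with 1 RS library (8.46). For MIR18A the RS libraries lie at -2.81 and -1.77, from 0 and 2 counts of miR-18a-5p. DDR-Sen D16 replicate 2 lies at -2.81 too, and the other points lie on both sides of 0.

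The miRNAs whose pattern was most like each guide were found by the Pearson r of the mean log2 CPM over the 18 conditions. These r describe points that share library scaling, and no p is given. miR-17-5p was most like miR-155-5p (r = 0.952), then miR-20a-5p (0.942) and miR-92a-3p (0.901). miR-92a-3p was most like miR-155-5p (0.973), then miR-17-5p and miR-130b-5p (0.896). miR-20a-5p was most like miR-17-5p, then miR-93-5p (0.939) and miR-155-5p (0.926). The lower-count guides followed less closely. miR-18a-5p reached 0.855 with miR-425-5p, 0.838 with miR-7-5p and 0.798 with miR-93-5p, and miR-19b-3p reached 0.869 with miR-425-5p, 0.814 with miR-93-5p and 0.77 with miR-20a-5p. Between pairs of the 7 tested members r ran from 0.51 (miR-18a-3p and miR-19b-3p) to 0.942.

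The paralogous miR-106b-25 cluster, which lies in an intron of the replication gene MCM7 and has members with the seeds of miR-17-5p and miR-92a-3p, had all 6 listed arms tested. Against Ctrl, 1 of 6 was called lower in PMD-Sen D16 (beside 10.3% of all tested miRNAs), 4 in DDR-Sen D16 (13.1%) and 5 in RS (13.3%). miR-93-5p, a relative of miR-17-5p, had log2 fold changes in that order of -0.93 ± 0.16 (SE, adjusted p = 0.000439), -1.27 ± 0.17 (adjusted p = 1.82e-06) and -1.97 ± 0.17 (adjusted p = 4.94e-10), the first of them short of the fold threshold. miR-25-3p, a relative of miR-92a-3p, had log2 fold changes of -0.65 ± 0.25 (adjusted p = 0.0671), -1.08 ± 0.25 (adjusted p = 0.00256) and -1.75 ± 0.26 (adjusted p = 8.45e-06). The comparisons of these clusters share the Ctrl libraries, and the difference between the clusters was not tested.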

How the data were processed

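Small RNA of 36 WI-38 libraries (18 conditions, 2 replicates) had been sequenced on a MiSeq after NEXTFLEX library preparation. Per the labels and the study's methods, adapter-trimmed reads went through exceRpt with GRCh38 and miRBase (release not given in the sources used here), and the authors deposited the expected counts per mature miRNA without normalization. Reads that match more than 1 miRNA are shared out, which leaves 1003 of 54288 values not whole. All values were made whole by rounding for the tests, which matters most for members at a few counts.

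Members, lists and tests were chosen with earlier results of these data known. All 10 members are named whatever their values, and the related clusters by their counts and at most 4 names. The filter was edgeR's filterByExpr on the 18 conditions for the contrasts and on the fitted libraries for slopes and series differences. For the latter, the 360 miRNAs of the contrasts were an alternative tried after the first calls had been seen. A call needed p under 0.05 and an absolute log2 fold change over 1. edgeR 4.0.16 (R 4.3.3) with TMM and glmQLFTest used all 36 libraries, and DESeq2 1.42.0 was an alternative. SE is the log2 fold change divided by the root of F. The prior count of log2 CPM was 2. Ratios were tested in NumPy 2.4.6 and binomial intervals made with SciPy 1.17.1. The fits were tested on simulated data. The common biological coefficient of variation was 20.9%. Replicates differed by more than sampling noise (chi-square per degree of freedom 4.31 to 106). Other alternatives were other scalings and filters, the replicate block, other time scales and leaving out libraries. The mRNA data of the study were not analysed here.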

Additional observations from a re-analysis of the deposited data

Results flagged for a closer look

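For 3 members a difference between the PMD-Sen and DDR-Sen series was called by 1 of 2 tests of the difference itself, slope or level, and by the other test it was not. The slope on log2(day + 1) was called for 1 of the 6 members that passed the low-count filter in both series, beside 9.32% of all tested miRNAs. It was that of miR-20a-5p, higher in PMD-Sen by 0.28 (log2, adjusted p = 0.0413 by edgeR), and its adjusted p was 0.0581 with the 360 miRNAs of the contrasts. This call was lost on leaving out any of 23 of the 32 libraries in turn, and 1 call among 6 members does not set them apart from the share over all. The level over D1 to D16 was called for 2 of 6, beside 8.96%. It was higher in PMD-Sen by 0.34 for miR-92a-3p (adjusted p = 0.00102) and by 0.95 for miR-18a-5p (adjusted p = 0.0367), and the latter was lost on leaving out any of 14 libraries in turn. No group holds 4 samples or more, so no sample was tested as an outlier.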

How the results depend on the processing

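Over the alternatives, 151 of 171 values of the comparisons kept their direction and their side of the threshold, or stayed within 1.5 times the count, and on leaving out 1 library 401 of 440 did. With only miRNAs of a mean of at least 10 counts, the members called fell from 5 to 3 at PMD-Sen D16, from 14 to 8 over the PMD-Sen days and from 26 to 15 over the DDR-Sen days, since fewer members were tested. At the adjusted p the DDR-Sen sum was 16, and 0 members were called at D16 between PMD-Sen and DDR-Sen or between DDR-Sen and RS.

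The number of members whose slope differed between the series was 1. It was 0 with total counts in place of TMM, with the 360 miRNAs of the contrasts, with day in place of log2(day + 1), without the D16 libraries and without the D0 libraries. It was 2 with a mean of at least 10 counts, with DESeq2 and with the replicate block. With miR-18a-3p included, the level difference over D1 to D16 was called for 5 members with total counts, against 3. The cause was not tested. The 360-miRNA set was chosen after the data had been seen.

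On leaving out 1 library, the members called ran from 3 to 5 at PMD-Sen D16, 9 to 14 over the PMD-Sen days, 0 to 3 for PMD-Sen against DDR-Sen at D16 and 1 to 2 for DDR-Sen D16 against RS (2 without DDR-Sen D16 replicate 2). The slope difference ran from 0 to 2.

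Some values near 0 changed sign. The PMD-Sen slope of miR-19b-3p was 0.0117 without D16 and ran from -0.139 to 0.023 on leaving out 1 library. The slope difference of miR-92a-1-5p was 0.00192 with no filter, 0.0195 with linear day and 0.0439 without D0. That of miR-92a-3p ran from -0.0138 to 0.104. For the ratios with day, r without D16 was 0.0741 for miR-92a-3p to miR-17-5p in PMD-Sen, and in DDR-Sen -0.12 for miR-19a-3p, -0.20 for miR-19b-3p and -0.00874 for miR-20a-5p, each to miR-17-5p. For miR-18a-5p to miR-18a-3p in DDR-Sen it was 0.0204 without D0. On leaving out 1 library, r ran from -0.046 to 0.446 for miR-17-5p to miR-17-3p and from -0.186 to 0.046 for miR-92a-3p to miR-17-5p in PMD-Sen. In DDR-Sen it ran from -0.43 to 0.11 for miR-18a-5p to miR-18a-3p, from -0.0265 to 0.237 for miR-19a-3p and from -0.15 to 0.27 for miR-20a-5p to miR-17-5p. For miR-92a-3p to miR-92a-1-5p in PMD-Sen it ran from 0.54 to 0.75, and without PMD-Sen D4 replicate 1 the adjusted p was 0.0205.

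The replicate differences showed no pairing by replicate number common to the conditions, though they cannot exclude a pairing of some of them. Over 153 pairs of conditions the correlation of replicate differences ran from -0.458 to 0.366 (median 0.0416). The replicate block left the members called against Ctrl at 5 (PMD-Sen D16), 6 (DDR-Sen D16) and 7 (RS), and moved the slope difference to 2 and the level difference to 4. Depth limits the arms at few counts. Calls against Ctrl that 1 library decided were found for the well-counted guides too, miR-17-5p, miR-20a-5p and miR-92a-3p.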
